A study of Rattus norvegicus with 19 samples.

Results

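The genes described here encode the granule and cytosolic defence proteins of neutrophils and eosinophils: Elane and Mpo of the neutrophil azurophil granule, Lcn2, Ngp and Camp of its specific granule, the calprotectin subunits S100a8 and S100a9 of the neutrophil cytosol, and Prg2 and Epx of the eosinophil granule. They were taken as the probes whose accession maps to these 9 rat RefSeq symbols. A probe was found for 8 of the 9, 1 probe each, and all 8 passed the filter on dim probes, among 23187 genes tested. Each probe without a symbol counts as a gene of its own in that number, and so in every share and median of all genes below. No probe matched Mpo, which was not analysed here. The genes were chosen by their known function and by their measured differences between 10 ml/kg corn oil and saline on these arrays, so their differences in each comparison with the 10 ml/kg arrays are given as a description. How many of them passed the threshold there is printed only beside the share of all genes that did, and is not used as a test. Tests of these genes are given for comparisons among saline, 2 ml/kg and 5 ml/kg corn oil. Those against saline reuse the saline arrays of the comparison that chose the genes, and only 5 against 2 ml/kg shares no array with it. Adjusted p-values from limma are also printed at 10 ml/kg for genes of other lists, which were written with earlier results known.

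The study measured whole-thymus RNA of female Wistar rats aged 7 weeks, kept specific pathogen-free and gavaged once a day for 14 days. One group received normal saline at 10 ml/kg (5 arrays), and the others received corn oil, a common vehicle in oral dosing, at 2 ml/kg (5 arrays), 5 ml/kg (4 arrays) or 10 ml/kg (5 arrays). All rats were untreated otherwise, and saline matched the volume of the 10 ml/kg corn oil group only. The labels give 6 animals a group and 3 rats a cage, number the arrays as replicates within a group and do not name the cage, so p-values measure the spread between these samples.

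Neutrophils and eosinophils are short-lived white cells that mature in the bone marrow and carry ready-made proteins in granules. Granule proteins are made in waves during maturation: azurophil proteins such as neutrophil elastase come first, and specific granule proteins such as lipocalin 2 and cathelicidin come later, under the transcription factor C/EBP epsilon. Neutrophils in blood keep little mRNA of the early granule proteins. Lcn2, unlike most of the others, is also induced in epithelia, adipocytes and macrophages through NF-kB, and its product binds bacterial siderophores. The thymus consists mostly of maturing T cells with few granulocytes.

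RefSeq's promoter table of assembly GRCr8 held 5 of the 8 measured genes, Lcn2, Ngp, Camp, S100a9 and Epx. Of these, 4 are shown because they stand for the patterns described below: Lcn2 stood apart from the rest, Camp and S100a9 varied together across arrays, and Epx is an eosinophil gene. Each sequence runs 5′ to 3′ on the gene's strand and ends at the base before the gene's annotated span, which for Lcn2 begins upstream of the table's start site. That of Lcn2 therefore covers bases -250 to -72 from that site (chr3:36081852-36082030, minus strand), and the others cover bases -250 to -1, Camp at chr8:118721999-118722248, S100a9 at chr2:178490623-178490872 and Epx at chr10:73175181-73175430, all on the minus strand. Capitals mark letters that match a motif searched on both strands.
Lcn2: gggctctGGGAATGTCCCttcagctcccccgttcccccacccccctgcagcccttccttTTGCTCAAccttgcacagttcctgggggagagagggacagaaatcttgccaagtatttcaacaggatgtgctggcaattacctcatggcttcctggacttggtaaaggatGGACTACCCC
Camp: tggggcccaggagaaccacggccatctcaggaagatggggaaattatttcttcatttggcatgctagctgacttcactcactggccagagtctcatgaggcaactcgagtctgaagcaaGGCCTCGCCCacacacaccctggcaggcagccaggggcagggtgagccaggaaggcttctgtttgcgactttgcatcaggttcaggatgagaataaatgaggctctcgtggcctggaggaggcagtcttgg
S100a9: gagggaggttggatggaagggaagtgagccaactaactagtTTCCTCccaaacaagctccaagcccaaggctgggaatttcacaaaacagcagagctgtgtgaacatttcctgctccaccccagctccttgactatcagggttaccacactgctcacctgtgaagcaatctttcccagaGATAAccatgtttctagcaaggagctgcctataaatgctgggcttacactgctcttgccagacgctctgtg
Epx: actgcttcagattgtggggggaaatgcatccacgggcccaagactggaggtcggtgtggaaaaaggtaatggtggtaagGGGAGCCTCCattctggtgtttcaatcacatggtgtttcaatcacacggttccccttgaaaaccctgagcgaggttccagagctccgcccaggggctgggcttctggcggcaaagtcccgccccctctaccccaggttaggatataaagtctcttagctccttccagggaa
The motifs were TTGCNNAA for C/EBP, GGG and CC separated by any 5 bases for NF-kB, GAGGAA for PU.1 and GATAA for GATA factors. Lcn2 held the C/EBP letters TTGCTCAA at -191, the NF-kB letters GGGAATGTCC at -243, which overlap a match on the other strand at -242, and a further match, GGACTACCCC, at -81. Over all 33469 promoters of the table, 6.96% held the C/EBP motif and 31.6% the NF-kB motif in the same window of 179 bases. Camp held 1 NF-kB match at -131 and Epx 1 at -171, a motif that 42.3% of promoters held in 250 bases. S100a9 held a PU.1 match at -209 and a GATA match at -71, found in 23.3% and 23.5% of promoters. Ngp, not printed, held 2 C/EBP matches, a motif that 9.22% of promoters held. A match is a run of letters and was not shown to be a binding site.

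Each value is the processed intensity on a log2 scale, less that array's 75th percentile, so 0 is the level of that percentile. They are not compared between genes, because each gene has its own probe. Defining thymocyte genes were bright on every array: Cd3d, part of the T cell receptor complex, had a mean of 5.84 and the recombinase gene Rag1 one of 4.75. The arrays lay on 5 slides, and slide explained 98% of the scores on the first principal component (56.9% of the variance) against 40% for group. Slide 3 held 10 ml/kg replicates 1, 2 and 3 with saline replicate 5, slide 5 held 10 ml/kg replicates 4 and 5 with 5 ml/kg replicate 2, and no slide held both 10 and 2 ml/kg or both 5 ml/kg and saline. Slide 3 also had more spots marked as non-uniform, 173 to 590 per array against at most 62 elsewhere, and the S100a8 spot was among them on all 4 of its arrays. Saline replicate 2 had the lowest median of the granule genes of all 19 arrays, at -0.90 relative to the saline means. Within saline, the summed level of B cell genes reached 2.37 on 1 array, with a group median of -0.25. That of adipocyte genes reached 4.79, with a group median of 2.66. Results are therefore also given within slides and without saline replicates 2 and 5. In whole tissue, more cells of a type and more RNA per cell cannot be told apart.

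All 8 measured granule genes were higher at 10 ml/kg corn oil than in saline, by 1.07 (Elane) to 4.80 (Lcn2) on the log2 scale, with a median of 1.37 beside -0.13 for all genes. Lcn2 had 27.8 times its saline level, and the other 7 had between 2.1 and 3.39 times theirs. Of the 8, 3 had an adjusted p under 0.05 with limma, Lcn2, S100a9 and Prg2, where 6.33% of all genes did (2.82% higher, 3.51% lower). In 4, Lcn2, S100a8, S100a9 and Prg2, every 10 ml/kg array measured lay above every saline array, as in 2.26% of all genes. For S100a8 this rests on 2 arrays at 10 ml/kg, both on slide 5, because its spots on slide 3 were marked. With the marked spots kept, 10 ml/kg replicate 1 read 1.66, below saline replicates 1 (2.24) and 3 (2.23). Because this comparison chose the genes, nothing is read from these counts.

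**Figure D1:**
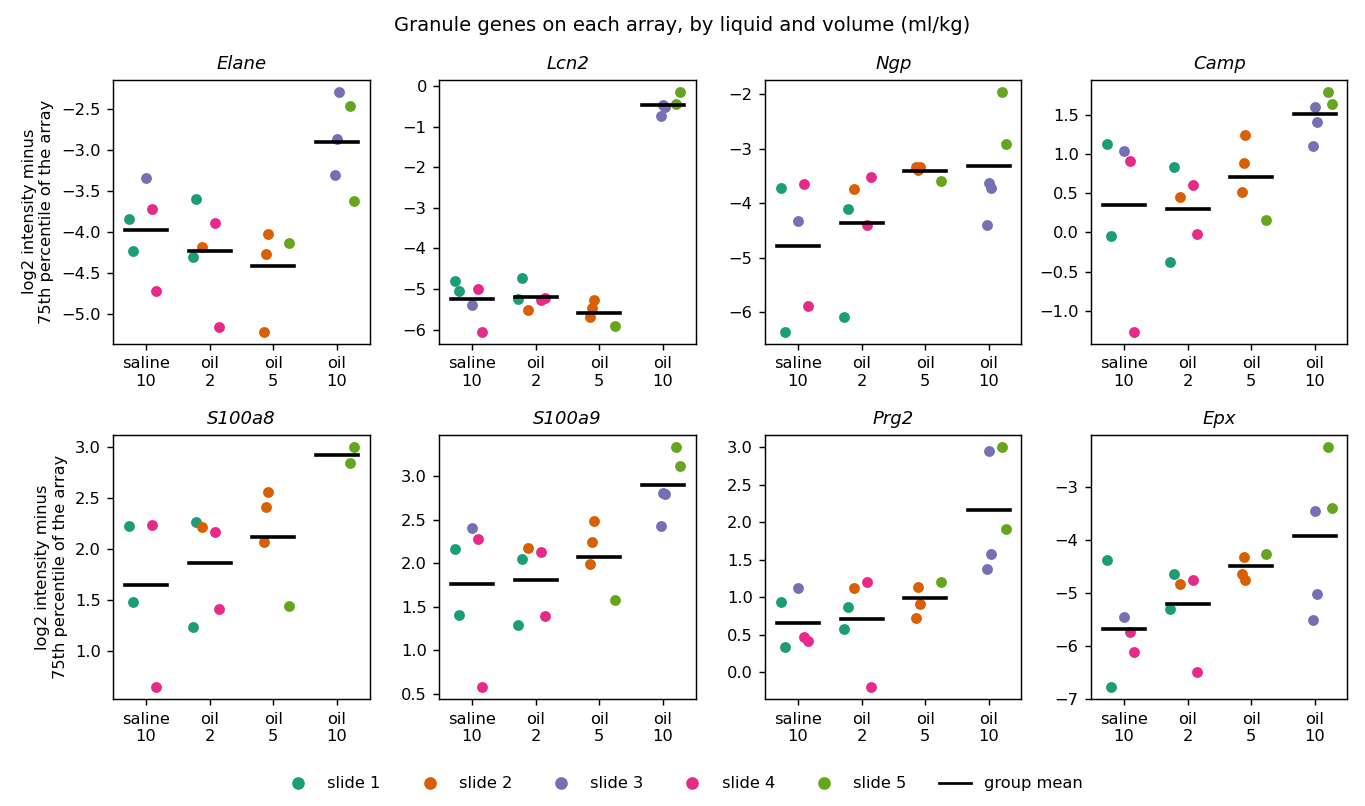
Each point is 1 array, coloured by slide; the vertical axis is log2 intensity less the array's 75th percentile and the horizontal axis the liquid and its volume in ml/kg, with a line at each group mean. The 5 Lcn2 values at 10 ml/kg lie between -0.75 and -0.14 and all other arrays at or below -4.74, while the 10 ml/kg points of Camp and Epx overlap those of other groups.

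Elane encodes neutrophil elastase, a serine protease of the azurophil granule that degrades bacterial and matrix proteins. Its values at 10 ml/kg were -3.30, -2.86, -2.29, -2.46 and -3.62 for replicates 1 to 5. In saline they were -3.72, -4.72, -3.84, -4.23 and -3.34. Replicate 5 at 10 ml/kg lay below saline replicate 5, and the other 4 lay above all 14 other arrays. The group means were -2.90 ± 0.56 (SD, n = 5) and -3.97 ± 0.53 (SD, n = 5), a difference of 1.07 ± 0.34 (SE). The values ran at 2 ml/kg from -5.16 to -3.59 and at 5 ml/kg from -5.21 to -4.02, both within or below the range of saline.

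Lcn2 encodes lipocalin 2, a specific granule protein that withholds iron from bacteria. Its values at 10 ml/kg were -0.75, -0.46, -0.51, -0.44 and -0.14 for replicates 1 to 5. In saline they were -4.99, -6.05, -4.80, -5.05 and -5.39. The 2 groups did not come near each other, and the lower oil volumes lay with saline. The values at 2 ml/kg were -5.27, -5.24, -4.74, -5.23 and -5.51. At 5 ml/kg they were -5.69, -5.92, -5.48 and -5.26. The 14 arrays outside the 10 ml/kg group formed a narrow low range whose order by volume was not steady, and the gap between the lowest 10 ml/kg array and the highest of the others was 3.99. Over all genes, 1.39% had every 10 ml/kg array above all 14 others, and the gap was larger for Mei1 (4.52) and Bad (4.08) only. The difference from saline was 4.80 ± 0.21 (SE), from 2 ml/kg 4.74 ± 0.21 and from 5 ml/kg 5.13 ± 0.22, and these 3 share the 10 ml/kg arrays. In processed intensity, the arrays ran from 1190 to 2270 at 10 ml/kg, from 37 to 89.2 in saline, from 50.2 to 79.8 at 2 ml/kg and from 36.4 to 67.1 at 5 ml/kg, all well above background.

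Ngp, a neutrophil granule protein related to the cathelicidins, had the widest spread of the 8 in saline (SD 1.26). Its values in saline were -3.65, -5.88, -3.71, -6.35 and -4.32, the fourth of them not well above background. At 10 ml/kg they were -4.40, -3.63, -3.71, -1.95 and -2.91. The 5 ml/kg arrays were close together at -3.34, -3.59, -3.38 and -3.34. Both 10 ml/kg arrays of slide 5 lay above all 14 other arrays and the 3 of slide 3 did not, and the 10 ml/kg group overlapped saline (difference 1.46 ± 0.58). The 2 ml/kg values ran from -6.08, not well above background, to -3.52.

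Camp encodes cathelicidin, which is cleaved to an antimicrobial peptide after release. Its values at 10 ml/kg were 1.10, 1.59, 1.41, 1.79 and 1.64. In saline they were 0.91, -1.26, 1.12, -0.05 and 1.03. Replicate 1 at 10 ml/kg lay just below saline replicate 3 and the other 4 lay above all other arrays, while saline replicate 2 was far below the rest of its group. The difference was 1.16 ± 0.38, and 0.75 without that saline array. The values ran from -0.37 to 0.83 at 2 ml/kg and from 0.16 to 1.24 at 5 ml/kg.

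S100a8 and S100a9 encode the subunits of calprotectin, which binds zinc, manganese and calcium and is abundant in the neutrophil cytosol. S100a9 had values of 2.43, 2.80, 2.79, 3.33 and 3.12 at 10 ml/kg. In saline it had 2.28, 0.58, 2.16, 1.41 and 2.41. The groups did not overlap, but 10 ml/kg replicate 1 lay 0.05 below the highest 5 ml/kg array (2.48). The range was 1.29 to 2.18 at 2 ml/kg and 1.58 to 2.48 at 5 ml/kg, and the difference between 10 ml/kg and saline was 1.12 ± 0.31. S100a8 was measured on 2 of the 10 ml/kg arrays, replicates 4 and 5, at 2.85 and 3.00. In saline replicates 1 to 4 it was 2.24, 0.64, 2.23 and 1.48, and the 10 ml/kg mean was 1.27 ± 0.46 higher. With the marked spots of slide 3 kept, saline replicate 5 read 1.65 and 10 ml/kg replicates 1, 2 and 3 read 1.66, 2.37 and 2.44, and the difference was 0.81 ± 0.33. The fit uses only the unmarked spots, so the S100a8 difference rests on slide 5 at 10 ml/kg. Its range was 1.23 to 2.26 at 2 ml/kg and 1.44 to 2.56 at 5 ml/kg.

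Prg2 encodes major basic protein, the crystalline core protein of the eosinophil granule. Its values at 10 ml/kg were 1.38, 2.95, 1.58, 3.00 and 1.91. In saline they were 0.47, 0.42, 0.93, 0.33 and 1.12. Replicates 2 and 4 at 10 ml/kg stood highest, and even the lowest of the 5 lay 0.18 above the highest other array. At 2 ml/kg the values were 1.20, 0.57, 0.87, -0.20 and 1.12, and at 5 ml/kg they were 0.72, 1.20, 1.14 and 0.91. The difference from saline was 1.51 ± 0.32, with an SD of 0.77 at 10 ml/kg against 0.35 in saline. Epx encodes eosinophil peroxidase. Its values at 10 ml/kg spread from -5.51 to -2.26 (-5.51, -3.47, -5.02, -2.26 and -3.40), with replicates 2, 4 and 5 above all other arrays. In saline they were -5.74, -6.11, -4.38, -6.78 and -5.45, the fourth not well above background. The groups overlapped and the difference was 1.76 ± 0.55. Epx ran at 2 ml/kg from -6.49 to -4.65, and at 5 ml/kg from -4.76 to -4.27.

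At 2 and 5 ml/kg no granule gene passed the threshold, and in 7 of the 8 the values overlapped those of saline at both volumes. Both comparisons use the saline arrays that also took part in choosing the genes, so their differences from saline are not independent of that choice. At 2 ml/kg against saline, 0 of 8 genes were called by limma, as 0% of all genes were, with 214 genes at an unadjusted p under 0.05 and none of the 8 among them. In none of the 8 did every 2 ml/kg array lie above every saline array, as in 0.216% of all genes. The differences ran from -0.25 (Elane) to 0.48 (Epx), 6 of 8 were positive, the median was 0.06 beside 0.04 for all genes, and all adjusted p-values were 1. At 5 ml/kg against saline, again 0 of 8 were called, as 0% of all genes were, with 1917 genes at an unadjusted p under 0.05. The differences ran from -0.44 (Elane) to 1.37 (Ngp), 6 of 8 were positive and the median was 0.34 beside -0.01 for all genes (limma, adjusted p from 0.579 to 0.744). Only Ngp had every 5 ml/kg array above every saline array, as 1.05% of all genes did, at 1.37 ± 0.62 with a 95% interval of 0.07 to 2.68 (limma, unadjusted p = 0.0405, adjusted p = 0.579). Epx stood at 1.20 ± 0.59 (interval -0.04 to 2.43), and no slide held both groups. With slide as a fixed block, the differences were smaller, at 0.16 ± 0.93 for Ngp and 0.18 ± 0.84 for Epx.

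For Lcn2 the intervals, from the fit without slide, give a range for the size of a difference at the lower volumes. Against saline it ran from -0.39 to 0.50 at 2 ml/kg and from -0.80 to 0.14 at 5 ml/kg, and from -0.85 to 0.08 for 5 against 2 ml/kg. For Prg2 they were -0.63 to 0.75, -0.39 to 1.07 and -0.45 to 1.01. For S100a9 they were -0.63 to 0.70, -0.40 to 1.01 and -0.44 to 0.97. In that fit the intervals of the last 2 genes thus reach up to about 1 log2 unit at 5 ml/kg against saline. They are not adjusted for the number of genes and do not give the size of difference that would be called. With slide as a fixed block, the differences from saline at 5 ml/kg had larger SEs. These differences were -0.44 ± 0.52 for S100a9, -0.24 ± 0.54 for Prg2 and -0.24 ± 0.32 for Lcn2. Between 5 and 2 ml/kg, which share no arrays with the comparison that chose the genes, 0 of 8 were called, as 0% of all genes were (1963 at an unadjusted p under 0.05), and in 0 of 8 did the groups separate upward (1.15% of all genes), with a median of 0.27 beside -0.04 (limma, adjusted p from 0.577 to 0.926).

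Against the lower volumes the 10 ml/kg arrays were high again. All 8 genes were higher at 10 than at 2 ml/kg, by 1.05 (Ngp) to 4.74 (Lcn2), with 5 called where 12.5% of all genes were (3.7% higher, 8.82% lower). Against 5 ml/kg all 8 were higher, by 0.09 (Ngp) to 5.13 (Lcn2), with 3 called where 7.92% of all genes were (3.53% higher, 4.39% lower). Every 10 ml/kg array measured lay above every array of the other group in 5 genes against 2 ml/kg (3.73% of all genes). The same held in 4 genes against 5 ml/kg (5.13% of all genes). Both counts include S100a8, which was measured on 2 arrays at 10 ml/kg. Camp differed by 1.21 and 0.81, S100a9 by 1.09 and 0.82, Prg2 by 1.45 and 1.17, Epx by 1.28 and 0.57 and Elane by 1.32 and 1.50. These comparisons share the 10 ml/kg arrays with the one that chose the genes and add no independent evidence.

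**Figure D2:**
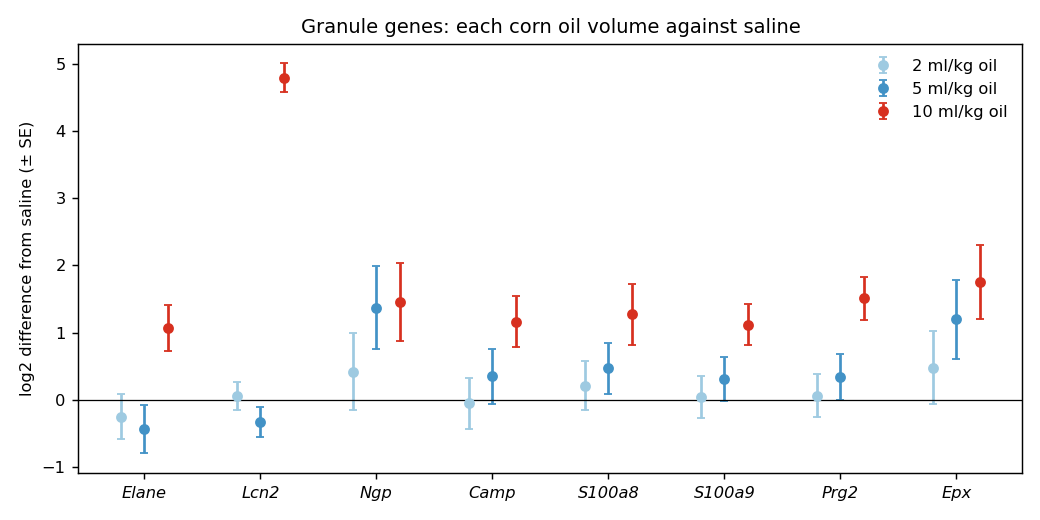
Points are log2 differences from saline for each granule gene at 2, 5 and 10 ml/kg corn oil, with bars of 1 SE from the fit of all 19 arrays, and the 3 volumes share the saline arrays. At 10 ml/kg all 8 points lie above 1, and at 2 ml/kg they lie between -0.25 and 0.48.

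The difference of Lcn2 had the same size within slides, and those of the other genes were smaller on slide 3. On slide 3, with 3 arrays at 10 ml/kg and 1 of saline, Lcn2 was 4.81 higher, Prg2 0.85, Epx 0.79, Elane 0.53, Ngp 0.41, Camp 0.34 and S100a9 0.27, beside a median of -0.06 for all genes. The saline array there, replicate 5, was the highest of its group for Elane, S100a9 and Prg2. On slide 5, with 2 arrays at 10 ml/kg and 1 at 5 ml/kg, Lcn2 was 5.63 higher and the other 7 were 1.10 (Elane) to 1.64 (S100a9) higher, beside a median of 0.02 for all genes. These values rest on 1 array of the other group and have no test. With slide as a block over all arrays, the differences from saline were 5.08 ± 0.30 for Lcn2, 1.73 ± 0.84 for S100a8, 1.17 ± 0.78 for Epx, 0.93 ± 0.50 for Prg2, 0.83 ± 0.86 for Ngp, 0.83 ± 0.63 for Camp, 0.71 ± 0.48 for S100a9 and 0.57 ± 0.53 for Elane. S100a8 had no value on slide 3, the only slide with both groups. Its blocked difference thus compares them only indirectly, through the 5 and 2 ml/kg arrays of other slides.

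Without saline replicate 2, the differences were 4.60 for Lcn2, 1.66 for Epx, 1.45 for Prg2, 1.19 for Ngp, 0.94 for S100a8, 0.88 for Elane, 0.83 for S100a9 and 0.75 for Camp. That array moved Camp by over 1.5 times and Prg2 and Lcn2 by little. Without saline replicate 5 they ran from 1.22 (Elane) to 4.76 (Lcn2). The part that the slides and the high B cell and adipocyte levels within saline had in the results was not tested further.

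**Figure D3:**
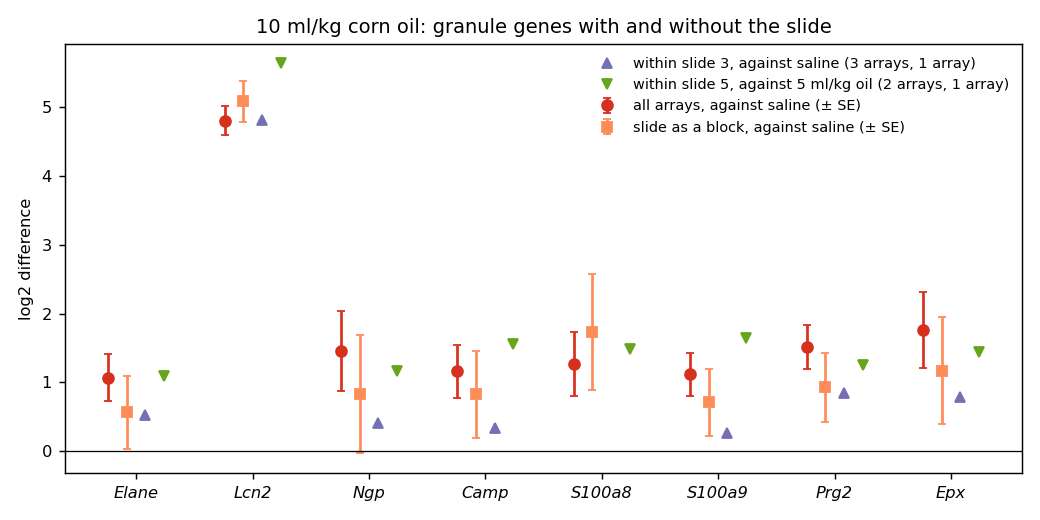
Points are log2 differences of the 10 ml/kg corn oil arrays for each granule gene: from saline over all arrays and with slide as a block (bars are 1 SE), within slide 3 against saline (3 arrays and 1 array) and within slide 5 against 5 ml/kg (2 arrays and 1 array). Lcn2 stays between 4.80 and 5.63, and the triangles of slide 3 lie below 1 for every other gene measured there.

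Per array, the median of the granule genes relative to their saline means was 0.67, 1.24, 1.06, 1.96 and 1.35 at 10 ml/kg. It was 0.39, -0.90, 0.52, -0.34 and 0.47 in saline and 0.37, -0.37, 0.50, -0.38 and 0.44 at 2 ml/kg. At 5 ml/kg it was 0.20, -0.17, 0.51 and 0.80. The 10 ml/kg replicate 1 thus lay below 5 ml/kg replicate 4, and the other 4 of the 10 ml/kg group lay above every other array.

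The granule genes also varied together within groups, with the calprotectin and cathelicidin genes closest. Over the 28 pairs, Pearson's r across the arrays ran from 0.32 to 0.97 with a median of 0.73, and with group means removed from 0.08 to 0.96 with a median of 0.56. The arrays share slides, groups and the scaling of each array, and pairs with S100a8 use 15 arrays, so these are descriptions. Camp and S100a9 had r of 0.97 over 19 arrays, 0.96 with group means removed and 0.98 with group and slide removed. S100a8 and S100a9 had 0.97, 0.93 and 0.91. The eosinophil pair Prg2 and Epx had 0.85, 0.85 and 0.89. With group means removed, Lcn2 had r of 0.74 to Camp, 0.63 to S100a9, 0.31 to Elane and 0.08 to Prg2. Its differences within groups were small beside the 4.80 between groups. Saline replicate 2 is the lowest array for Camp, S100a8, S100a9 and Lcn2.

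**Figure D4:**
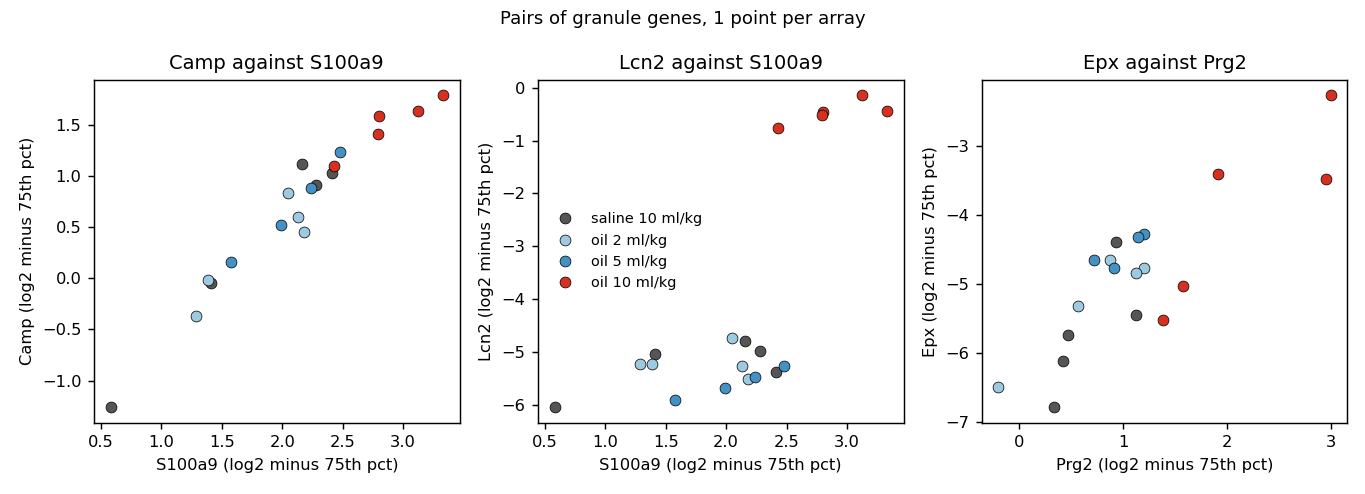
Each point is 1 of 19 arrays, coloured by liquid and volume, and both axes are log2 intensity less the array's 75th percentile. Camp and S100a9 lie along 1 line through all groups (r = 0.97), whereas Lcn2 against S100a9 shows the 5 arrays at 10 ml/kg between -0.75 and -0.14 and the rest at or below -4.74.

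**Figure D5:**
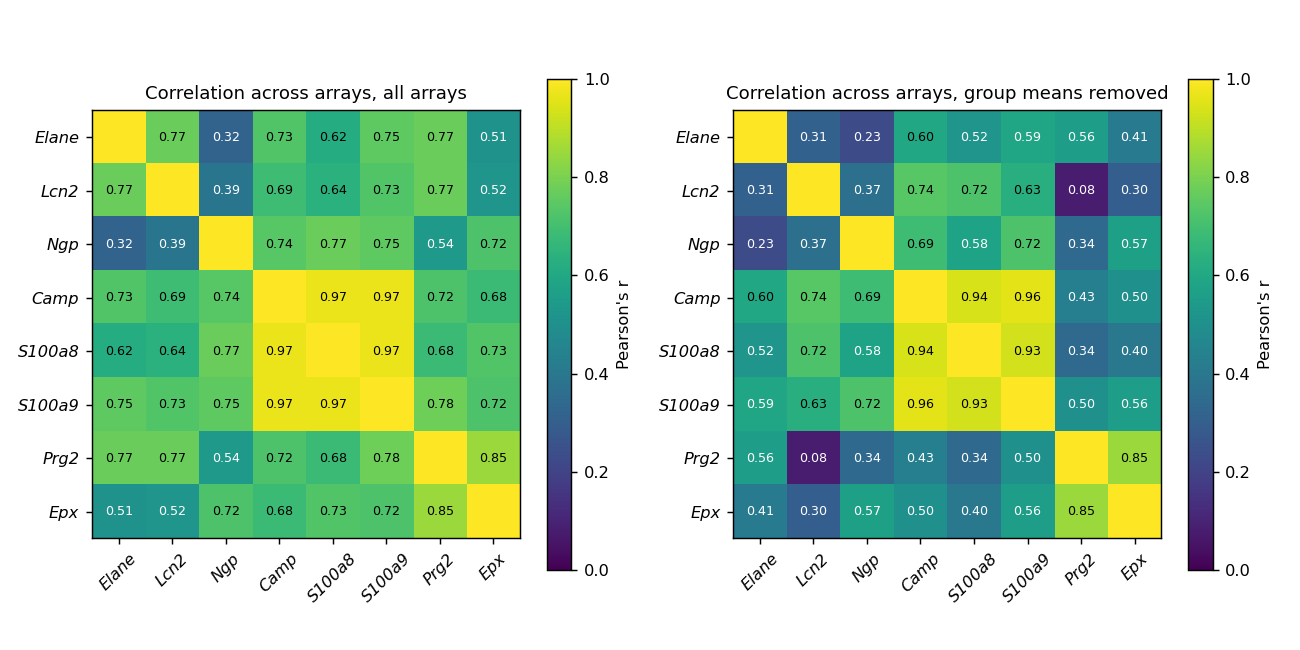
Cells give Pearson's r across arrays for each pair of granule genes, on the left over all arrays (19, or 15 for pairs with S100a8) and on the right with group means removed, on a colour scale from 0 to 1. The block of Camp, S100a8 and S100a9 stays at 0.93 or above on the right, and Lcn2 against Prg2 falls from 0.77 to 0.08.

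Likeness was searched among 12216 genes with a symbol and a value on all 19 arrays. This left out S100a8, which had r of 0.97 to S100a9 over 15 arrays. Of the genes searched, those most like Lcn2 were Bad (r = 0.99), Mei1 (0.98), RT1-CE16 (0.98), Bloc1s6 (0.97) and Gstm4 (0.96). None of these is a gene of the granulocyte lists. For Lcn2 the arrays fall into 2 separate clusters, so r mainly records the step at 10 ml/kg. Bad, a pro-apoptotic gene, was 4.95 higher at 10 ml/kg than in saline, and Mei1, a meiosis gene, 5.47 higher. RT1-CE16, a class I histocompatibility gene, was 1.35 higher. Among the genes searched, S100a9 was most like Camp (0.97), Cebpe (0.94), Mmp8 (0.92), Hp (0.89) and Ctsg (0.87), which were 1.09 to 1.46 higher at 10 ml/kg than in saline. All 5 are in the granulocyte lists or among the granule genes themselves, and Hp, haptoglobin, is also a plasma protein gene. Prg2 was most like Prg3 (0.98), its paralogue in the eosinophil granule, followed by Retnlg (0.89), Actn3 (0.89), Cebpe (0.87) and Linc00176 (0.86). Whether the probes of these paralogues respond to each other's transcript was not tested.

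Some granule genes outside the 9 rose as well at 10 ml/kg. Counts in these lists stand beside 2.82% of all genes called higher and 3.51% lower in this comparison, with a median of -0.13, and in short lists 1 called gene is not set apart from that share. Of the other azurophil granule genes, 3 of 4 were tested and 1 rose at 10 ml/kg against saline, Prtn3, which encodes proteinase 3 (1.30 ± 0.36, limma, adjusted p = 0.0419). The cathepsin G gene Ctsg stood at 1.25 ± 0.38 (adjusted p = 0.0593) and Bpi at 0.47. Of the other specific and gelatinase granule genes, 7 of 8 were tested, 2 rose and 0 fell, with 6 positive and a median of 0.53. These were Hp (1.19 ± 0.20, limma, adjusted p = 0.00181) and the collagenase gene Mmp8 (1.46 ± 0.41, adjusted p = 0.043). The bright lysozyme gene Lyz2, which macrophages share, stood at 0.17, the defensin gene Np4 at 0.95 ± 0.32 (adjusted p = 0.0853), the lactoferrin gene Ltf at 0.53 and Olfm4 at -0.51. Of the other eosinophil granule genes, 3 of 5 were tested and 1 rose, Prg3 (2.04 ± 0.45, adjusted p = 0.0112), while the eosinophil ribonuclease genes Rnase17 and Rnase2 stood at 0.49 and 0.07. These genes come from the same animals and from lists written with earlier results known.

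Some neutrophil receptor and oxidase genes rose too, in a list written with earlier results of these data known. With slide as a block, none of them stayed called. Of the neutrophil receptor and oxidase genes, 13 of 18 were tested, 3 rose and 0 fell (2.82% and 3.51% of all genes), with 9 positive and a median of 0.35 beside -0.13 for all genes. They were Ncf1, an oxidase subunit (0.80 ± 0.14, limma, adjusted p = 0.00236), the decoy interleukin-1 receptor Il1r2 (0.65 ± 0.14, 0.0123) and Trem1, an amplifying receptor of myeloid cells (0.92 ± 0.21, 0.0138). The 2 brightest, Cyba and Itgb2, stood at 0.33 and -0.21, and the chemokine receptor Cxcr2 and the growth factor receptor Csf3r at 0.39 and 0.46. Of the same list, Fpr1 stood at 0.02 and Itgam at -0.41. Of the eosinophil receptor and enzyme genes, 6 of 8 were tested, and none rose or fell (limma), with 0 positive and a median of -0.19. The chemokine receptor gene Ccr3, which eosinophils carry, was well above background on 5 of 19 arrays (difference 0.00), Adgre4 stood at -0.01 and Alox15 at -0.58. Whether the eosinophil granule and receptor genes differ from each other was not tested.

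Beside the 2.82% of all genes called higher, 1 of 8 granulocyte transcription factors rose, Cebpe, which drives late granule genes (1.09 ± 0.27, limma, adjusted p = 0.0212), and the median was 0.01. The bright Gfi1 and Cebpb stood at -0.15 and 0.10. Of 13 attractants and growth factors tested, none rose or fell (limma), 5 were positive and the median was -0.01, with the eotaxin gene Ccl24 at -0.01 and Il33 at 0.12. Of 4 receptors for calprotectin or lipocalin 2, 1 rose, the megalin gene Lrp2 (0.47 ± 0.13, limma, adjusted p = 0.0432), while Slc22a17 stood at -0.05 and Tlr4 at -0.03. Of 10 acute phase and NF-kB genes that respond to the same stimuli as Lcn2, 2 rose and 0 fell, Hp and Lbp (0.81 ± 0.21, limma, adjusted p = 0.0325), and the median was 0.28. Nfkbia and Icam1, both NF-kB targets, stood at 0.38 and 0.19. None of the genes of these lists was called at 2 or 5 ml/kg against saline or between these volumes.

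With slide as a block, none of these calls in granulocyte genes remained (limma, adjusted p from 0.0787 to 0.603), and all differences kept their sign. Trem1 stood at 1.07 with the block and 1.29 within slide 3, Prg3 at 1.37 and 1.17, Hp at 0.84 and 0.58, Ncf1 at 0.70 and 0.66, Prtn3 at 0.81 and 0.70, Mmp8 at 0.91 and 0.48, Il1r2 at 0.53 and 0.80 and Cebpe at 0.73 and 0.28.

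Of the markers of other cell types, 4 lists held 1 gene each that was called higher, beside 2.82% of all genes. Of 8 mast cell genes, all were positive at 10 ml/kg against saline with a median of 0.38, and 1 rose, the tryptase gene Tpsab1 (0.96 ± 0.24, limma, adjusted p = 0.0215). Their summed level was -1.16 to -0.34 in saline and -0.66 to -0.13 at 10 ml/kg, which overlap. Of 4 B cell genes all were positive (median 0.47) and 1 rose, Blnk (0.51 ± 0.15, adjusted p = 0.0477). Their summed level was 0.32 to 0.95 at 10 ml/kg and -0.43 to 2.37 in saline. Of 8 epithelial genes 5 were positive and 1 rose, Krt19 (0.99 ± 0.19, adjusted p = 0.00453). Of 6 erythroid genes 4 were positive and 1 rose, the globin gene Hba-a3 (4.28 ± 0.64, limma, adjusted p = 0.000581), which was well above background on 9 of 19 arrays. The bright globin gene Hba-a1 stood at 0.62, and the summed level of the erythroid genes was 2.78 to 5.40 in saline and 3.77 to 5.23 at 10 ml/kg. None of 10 macrophage and dendritic genes (median -0.14), 8 thymocyte genes (-0.17), 4 platelet genes (-0.17) or 6 adipocyte genes (-0.18) was called in limma. With slide as a block, Tpsab1 stood at 1.11, Krt19 at 0.75 and Blnk at 0.58, none of them called (limma, adjusted p = 0.185, 0.234 and 0.193), and Hba-a3 stood at 6.70 (limma, adjusted p = 2.15e-05) and at 6.56 within slide 3, larger than the differences of Lcn2 there. No list had all of its genes below background in a group. The part of these cells in the granule gene differences was not tested.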

How the data were processed

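Total RNA was extracted with Trizol and labelled with Cy3 by a low-input kit, per the labels' protocols. The authors deposited linear intensities of 1-colour Agilent rat arrays, background-subtracted in Feature Extraction (version 10.7.3.1 per the file headers). Each was taken to log2 after division by the array's 75th percentile. Control spots were dropped, non-uniform and population-outlier spots counted as missing, and replicate spots of a probe were averaged. Probes well above background on at least 4 arrays, with at least 2 values in each group, were kept, the brightest per gene. A probe without a symbol was kept as a gene of its own. Probes were named by matching accessions without version to RefSeq of assembly GRCr8 (17328 of 30367 probes), and the array design used build rn4 per the file headers.

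Two-sided tests came from limma 3.58.1 (R 4.3.3, lmFit, then eBayes) with 1 coefficient per group over all 19 arrays. Benjamini-Hochberg adjustment ran over all 23187 genes, with a threshold of 0.05. The tests were checked on simulated data that held no slide effect, so that check cannot show how they behave with one. The granule genes and all gene lists were chosen with earlier results of these data known. Named genes are all granule genes of the rule, the called genes and the 2 with the highest mean of each granulocyte list, and the 2 with the highest mean of each other cell type list. Also named are the 5 genes most correlated with Lcn2, S100a9 and Prg2, among those with a symbol and a value on every array. Further list genes named beside them were chosen after their values were seen. The 75th percentile was 1852 to 2954 in intensity, and 69.7% to 88.4% of spots were well above background. Signal and the number of arrays limit the precision.

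The series' deposited value table was used as an alternative only. It is linear and not centred, with Spearman correlations to the processed intensities of 0.9983 to 0.9999, and the rule behind each array's factor stayed unknown. The medians of its columns were 163, 185, 215, 201 and 124 for saline, 171, 209, 233, 173 and 148 for 2 ml/kg, 141, 164, 146 and 145 for 5 ml/kg and 119, 117, 126, 179 and 170 for 10 ml/kg. The normexp alternative used median spot signals, in place of the planned mean signals, with an offset of 50 added, and was followed by quantile normalization.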

Additional observations from a re-analysis of the deposited data

Results flagged for a closer look

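Of 31 groups of values tested (each of the 8 genes in each group of 4 or more arrays), 1 held an array apart from the others by Dixon's test: Ngp in 5 ml/kg replicate 2 was -3.59, where the nearest array stood at -3.38 and the highest at -3.34. The 4 arrays lay within a narrow range (SD 0.12), and replicate 2 was the one on slide 5. Chance marks about 1 in 20 such groups.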

How the results depend on the processing

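The comparisons with 10 ml/kg chose the genes, so their counts past the threshold are given as descriptions. Against saline, 3 of 8 were called at 10 ml/kg, 1 with slide as a fixed or a random block, 1 in a fit of only these 2 groups, 2 without the filter on dim probes, 5 after quantile normalization and 6 after normexp. The median was 0.88 with the fixed block, 1.04 with array weights and 1.77 without slide 3, an alternative chosen after seeing the data. Leaving out 1 array gave 2 to 6 called genes and medians of 1.06 to 1.52, with 6 without saline replicate 5. The difference of Lcn2 was 4.60 to 4.91 in these 19 fits. Its size depended on the processing: it was 3.61 ± 0.10 after normexp with an offset of 50 and quantile normalization. It was 4.98 ± 0.22 after quantile normalization of the processed intensities, without normexp. The part that the offset had in this was not tested. After normexp it was 3.68 against 2 ml/kg and 3.67 against 5 ml/kg. Of all genes, 1468 were called, 467 with the fixed block, 478 in the fit of 2 groups, 753 without slide 3, 7127 with array weights and 4787 without saline replicate 5, and from 957 upward without another array. Of the called genes 44.6% were higher, against 57.8% with the fixed block, 67.4% after quantile normalization, 69.8% after normexp, 20.6% with array weights and 62.4% without slide 3.

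Against 2 ml/kg, 5 were called, 1 with either slide block, 3 in the fit of 2 groups, 3 without slide 3 and 2 to 5 leaving out 1 array. Against 5 ml/kg, 3 were called, 1 with either slide block, 1 without slide 3 and 1 to 3 leaving out 1 array. At 2 and 5 ml/kg against saline and between them, 0 were called under every alternative.

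Small differences at the lower volumes changed sign. With slide as a fixed block, the median at 5 ml/kg against saline was -0.20, with Camp at -0.17, S100a9 at -0.44 and Prg2 at -0.24. At 2 ml/kg S100a9 was -0.06, and between 5 and 2 ml/kg Ngp was -0.05, Camp -0.06, S100a9 -0.38, Prg2 -0.28 and Epx -0.13. With a random block S100a9 was -0.14 at 5 and -0.03 at 2 ml/kg, and between them S100a9 was -0.11 and Prg2 -0.03. After normexp Lcn2 was -0.07 at 2 ml/kg, and between 5 and 2 ml/kg Elane was 0.11 and Lcn2 0.01. After quantile normalization these were -0.06, 0.11 and 0.03. With array weights at 2 ml/kg, Lcn2 was -0.12, S100a8 -0.05 and S100a9 -0.12, and Ngp between 10 and 5 ml/kg was -0.21. Camp at 2 ml/kg was 0.12 without slide 3. Leaving out 1 array gave -0.05 to 0.54 for Camp at 5 ml/kg. At 2 ml/kg it gave -0.14 to 0.17 for Lcn2, -0.46 to 0.14 for Camp, -0.13 to 0.41 for S100a8, -0.26 to 0.20 for S100a9 and -0.06 to 0.29 for Prg2. It gave -0.42 to 0.09 for Elane between 5 and 2 ml/kg and -0.25 to 0.36 for Ngp between 10 and 5 ml/kg. The cause was not tested.

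Same-numbered arrays of different groups were not more alike than others. Deviations from group means correlated at -0.64 to 0.71 (median -0.02) in the 27 same-numbered pairs and at -0.69 to 0.64 (median 0.01) in the 108 others. Slide was left in these deviations, so they cannot show whether the numbers pair the animals. With the replicate block 3 genes were called at 10 ml/kg against saline (median 1.31), 5 against 2 ml/kg and 2 against 5 ml/kg, where Ngp was -0.03, and 0 in the other comparisons.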
